A study of Homo sapiens with 8 samples.

Results

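The regions described here were bound by the progesterone receptor (PR) in T47D MTVL WT cells after R5020 and were not called as binding sites of PR after R5020 or of the glucocorticoid receptor (GR) after dexamethasone (Dex) in T47D A1-2 cells. Peaks of the 3 libraries were merged where they overlapped by at least 1 bp, after peaks outside chromosomes 1 to 22 and X and peaks at A1-2 input peaks had been dropped. Of 51444 merged regions, 18796 held an MTVL PR peak and no other (36.5%, 36.1 to 37.0). Of the 42919 regions with MTVL PR they were 43.8%. Each of the 18796 regions, called MTVL-only regions below, held exactly 1 MTVL peak. They were chosen by whether a peak was called in the 3 lists, so their number is a description, and the name covers these lists only. The MTVL PR list was the longest, with 43070 peaks beside 28262 for A1-2 PR and 18415 for GR Dex. With each list held to its 18415 strongest peaks, 5184 regions were MTVL-only (17.0% of merged regions).

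T47D cells are a long-established line from a human breast carcinoma, with little GR of their own. A1-2 is a T47D derivative with stable GR expression, which the series describes as a mammary epithelial line with both receptors. MTVL WT is the T47D line that served as control in the work, and lines of this name carry a luciferase reporter under a mouse mammary tumour virus promoter. Binding was mapped by ChIP-seq, in which DNA held by a protein is recovered with an antibody and sequenced. The libraries compared are PR in MTVL cells and PR in A1-2 cells, both after 60 min of 10 nM R5020 (a synthetic progestin), and GR in A1-2 cells after 60 min of 10 nM Dex (a synthetic glucocorticoid). All cells had first been kept for 48 h in medium with 10% charcoal-stripped serum and for 24 h without serum. Untreated libraries of PR in MTVL cells and of PR and GR in A1-2 cells, a library of GR in A1-2 cells after R5020, and A1-2 input DNA were used beside them, which makes 8 libraries. The same antibody was used for PR in both lines and a mix of 2 for GR. Each condition had 1 library, so nothing here has a replicate check, and a difference between the lines cannot be told apart from a difference between libraries. Read depth is unknown. Intervals are 95% intervals over regions and cover counting error only.

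PR and GR are steroid receptors that bind DNA as dimers after hormone enters the cell. They recognise the same family of hormone response elements, most often in enhancers that other factors have already opened, and so one receptor can occupy sites of the other. In breast epithelium PR controls growth and differentiation of the gland, and GR is known to alter the response of breast cancer cells to progestins. Genes are not named for the regions below because positions are in the hg19 build, for which no annotation was used here.

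MTVL-only regions were for the most part weak PR sites, but 560 of them were strong. Strength is given by the deposited peak score, the authors' own value, which grows with the significance of a peak within its library. The score of the MTVL peak ran from 100 to 3228 in MTVL-only regions, with a median of 187 and middle 50% from 131 to 314. Regions where A1-2 cells also had PR but no GR Dex peak had a median MTVL score of 462, and where both lines had PR and A1-2 cells had GR as well it was 914. The 1090 regions with MTVL PR and GR Dex but no A1-2 PR had a median of 184, close to that of the MTVL-only regions. A score under 200 was found in 54.1% of MTVL-only regions and in 17.5% of the other MTVL PR regions. A score of 1000 or more was found in 560 MTVL-only regions (2.98%), against 20.6% of all regions with MTVL PR. MTVL-only regions covered 12.2 Mb.

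The share of MTVL-only regions fell without a break from the weakest to the strongest decile of the MTVL PR regions. It was 77.2% (75.9 to 78.4) in the lowest decile, with scores from 100 to 120, and 52.4% in the fifth. In the highest decile, with scores of 1928 or more, it was 2.14% (1.73 to 2.62), or 92 regions of 4291. Regions with GR Dex but no A1-2 PR followed the same slope, from 4.31% to 0.233%. Sites of all 3 lists went the other way, from 7.48% to 75.2%. MTVL-only peaks were narrower as a whole, and width rose with score in both classes. Their median width was 612 bp against 730 bp for the other MTVL PR peaks, but in deciles 6 and 7 of the peak score the medians were 674 against 678 bp and 710 against 711 bp. In the highest decile MTVL-only peaks were the wider ones, at 1052 against 987 bp.

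**Figure D1:**
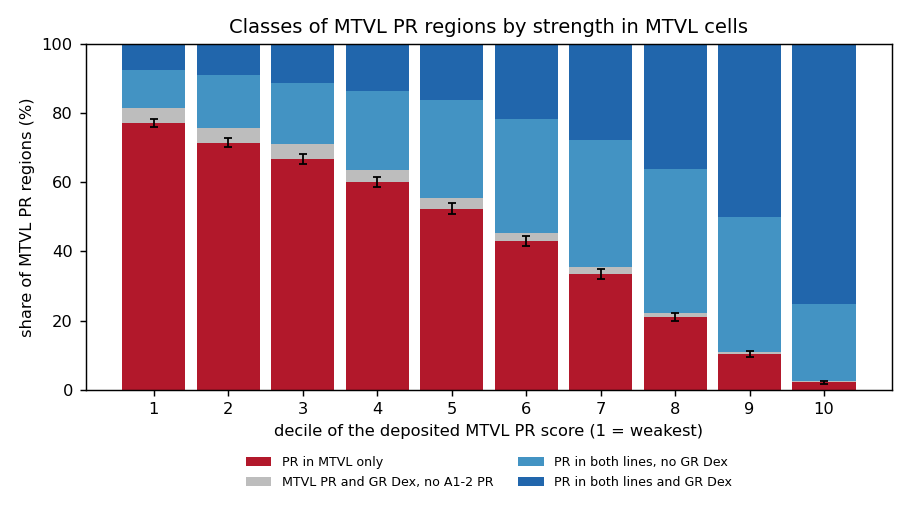
Share (%) of 4 classes of MTVL PR regions (vertical axis) in each decile of the deposited MTVL PR score (horizontal axis, 1 is weakest); black bars are exact 95% intervals of the MTVL-only share. The MTVL-only share goes from 77.2% in decile 1 to 2.14% in decile 10.

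The strongest MTVL-only regions reached the top of the score range of MTVL cells. The score has a ceiling near 3100, where many peaks are tied. It was reached by 18 of 18796 MTVL-only regions, on 11 chromosomes, and by 2002 of the 24123 other MTVL PR regions. The highest lay at chr13:109507154-109508627 with an MTVL score of 3228, and the nearest A1-2 PR peak was 3.13 kb away, with the nearest GR Dex peak at 100.3 kb. The region chr9:13063783-13065285 scored 3192 and had A1-2 PR at 5.54 kb and GR at 8.11 kb. At chr5:34864646-34865807 the score was 3191, with A1-2 PR at 13.3 kb and GR at 13.2 kb. These regions thus had A1-2 binding in the neighbourhood but not under the peak.

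Of the others at the ceiling, 2 stood more than 100 kb from any A1-2 PR or GR Dex peak, both on chromosome 2. The region chr2:144309343-144310108 scored 3100, and the nearest A1-2 peaks were 190.1 kb away for PR and 190.3 kb for GR. The region chr2:85380972-85382108, also at 3100, had A1-2 PR at 104.0 kb and GR at 193.7 kb. At chr7:27565472-27566373 the nearest A1-2 PR peak was 191.7 kb away and the nearest GR peak 44.8 kb. The reverse case was chr7:89858458-89859889, with A1-2 PR and GR peaks at 0.791 and 0.762 kb. Scores from 3104 to 3144 belonged to chr17:70464160-70465449 (A1-2 PR at 19.2 kb) and chr5:40774731-40776562 (GR at 40.6 kb). The score of 3100 was also reached, among others, at chr1:86121381-86122449, chr3:191887964-191889784 and chr7:21644215-21645335, with A1-2 PR at 26.2, 28.3 and 4.91 kb. Among the 18, 5 had an A1-2 PR or GR Dex peak within 10 kb and 2 had none within 100 kb.

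Width rose with score over the regions as a whole, but the 5 widest had scores from 123 to 390. The widest MTVL-only region, chr16:85412702-85421663, was 8962 bp long with a score of 390. The next were chr3:179167802-179171074 at 3273 bp with a score of 246 and chr3:171176622-171179868 at 3247 bp with a score of 123. Those on chromosome 17, at chr17:79825085-79827910 and chr17:39703573-39706359, were 2826 and 2787 bp long with scores of 138 and 325.

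Most MTVL-only regions lay well away from the sites of A1-2 cells. An A1-2 PR or GR Dex peak lay within 500 bp of 733 of them (3.90%, 3.63 to 4.19) and within 1 kb of 1318 (7.01%). Within 10 kb there was one for 6134 (32.6%, 32.0 to 33.3), and 3159 (16.8%) had none within 100 kb. PR peaks of A1-2 cells lay within 10 kb of 30.3% and GR Dex peaks within 10 kb of 19.3%. The median distance to the nearer of them was 23.1 kb, and the farthest MTVL-only region stood 2038 kb away.

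MTVL-only regions lay farther from A1-2 sites than the other classes did. The median distance to the nearest other merged region with an A1-2 peak was 22961 bp for them, 15205 bp for regions with GR but no A1-2 PR, 13619 bp for PR of both lines without GR, and 7874 bp for PR of both lines with GR. Scores of MTVL-only regions were much the same at every distance. The median score was 191 within 1 kb of an A1-2 peak, 188 from 1 to 10 kb, 185 from 10 to 100 kb and 187 beyond 100 kb. The share that scored 1000 or more stayed between 2.58% (1.79 to 3.59) and 3.36% (2.87 to 3.91) over these distances, with overlapping intervals. Distances come from the same lists that chose the regions and are a description.

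**Figure D2:**
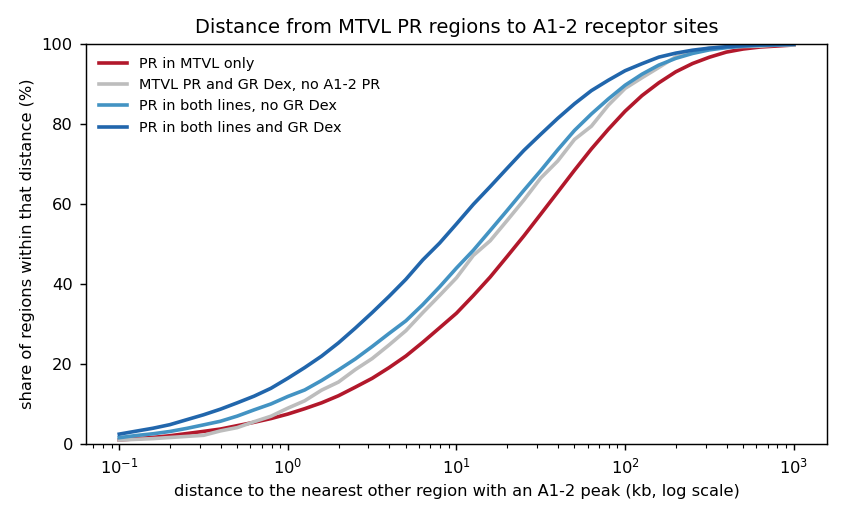
Share (%) of regions of each class (vertical axis) that have another merged region with an A1-2 PR or GR Dex peak within the distance on the horizontal axis (kb, log scale). The curve of MTVL-only regions lies lowest from 1 kb to 100 kb, with medians from 7874 bp for PR of both lines with GR to 22961 bp for MTVL-only regions.

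MTVL-only regions had an MTVL-only neighbour more often than the other MTVL PR regions did. The nearest other MTVL PR region was itself MTVL-only for 50.5% (49.8 to 51.2) of MTVL-only regions, and for 37.1% (36.5 to 37.7) of the other MTVL PR regions. The gap held at every spacing. Among neighbours up to 10 kb apart the shares were 48.2% and 33.7%, from 10 to 100 kb they were 51.5% and 40.6%, and beyond 100 kb they were 60.0% and 47.3%. Since neighbours count each other, these shares are not independent. They come from the lists that chose the regions, were not matched for score and are a description.

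Strong MTVL-only regions had the most company. Another MTVL-only region lay within 10 kb of 26.1% (25.3 to 27.0) of those with a score under 200, of 30.5% of those from 200 to 1000 and of 42.3% (38.2 to 46.5) of those at 1000 or more. Of the 18 at the ceiling, 14 had one (77.8%, 52.4 to 93.6), at a median of 4.87 kb. A rise was present elsewhere too. An MTVL-only region lay within 10 kb of 16.9% of the other MTVL PR regions with a score under 200 and of 42.4% of those at 3100 or more. Another MTVL PR region of any class lay within 10 kb of 45.6% and 75.3% of these, and of 44.5% and 88.9% of MTVL-only regions. An A1-2 site lay within 10 kb of 32.3% of MTVL-only regions under 200 and of 35.2% (31.2 to 39.3) at 1000 or more, a difference within counting error. For the other MTVL PR regions these shares were 45.7% and 54.3%.

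PR binding before hormone was measured in a library that the choice of regions did not use. Its list was short, with 219 peaks used, so few regions of any class could lie at such a peak. An untreated MTVL PR peak lay at 23 of 18796 (0.122%, 0.0776 to 0.184), against 0.552% of all MTVL PR regions and 214 of 24123 of the other MTVL PR regions (0.887%, 0.773 to 1.01). The difference was -0.765 percentage points (-0.898 to -0.638). Of sites present in all 3 lists, 149 had an untreated peak (1.29%), and of regions with PR in both lines without GR 65 (0.565%). Of the 1090 with GR Dex but no A1-2 PR 0 had one, which allows a share of up to 0.275% by a limit of 3 counts and up to 0.338% by the exact interval.

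The difference was smaller at equal strength. For MTVL-only against other MTVL PR regions, the odds ratio of an untreated peak, pooled over deciles of the score, was 0.579 (0.348 to 0.963), compared with 0.137 (0.0890 to 0.211) without deciles. With 50 classes of the score it was 0.618 (0.371 to 1.03), an interval that reaches past 1. The direction differed between deciles, so the pooled value does not describe each of them. The share at an untreated peak was higher for MTVL-only regions in deciles 1, 2, 7 and 9 and lower in deciles 3 to 6, 8 and 10. In decile 7 it was 7 of 1438 against 6 of 2854, and in decile 8 it was 1 of 904 against 11 of 3388. In decile 9 the interval of the difference included 0, with 3 of 445 (0.674%, 0.139 to 1.96) and 23 of 3847 (0.598%), a difference of 0.0763 points (-0.459 to 1.38). In decile 10 they were 0 of 92 and 151 of 4199 (3.60%), a difference of -3.60 points (-4.20 to 0.446) that also included 0. A count of 0 of 92 allows a share of up to 3.26% by the limit of 3 counts and up to 3.93% by the exact interval. With the minimum score raised to 200 in every list, the share at an untreated MTVL peak was 0.0283% and the odds ratio 0.217. That setting also cut the untreated MTVL list itself, whose median score was 143. With lists of equal length the share was 0.289% and the odds ratio 0.648 (0.357 to 1.17).

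The 23 regions with PR before and after R5020 in MTVL cells lay on 13 chromosomes, and 16 of them had an A1-2 PR or GR Dex peak within 10 kb. Their R5020 scores ran from 105 to 1189 with a median of 351, above the 187 of all MTVL-only regions. The median for the other MTVL PR regions with an untreated peak was 3100, the ceiling. The scores of the untreated peaks themselves were low in both, with medians of 130 and 145 and highest values of 306 and 511. The strongest of the 23 after R5020 was chr9:13484939-13486247, with a score of 1189 after R5020 and 105 without hormone, and an A1-2 PR peak at 1.52 kb. At chr1:94244931-94245783 the scores were 1146 and 149, and at chr8:40454056-40455114 they were 1091 and 120, with A1-2 PR 48.1 and 108.7 kb away. Next came chr14:38035681-38036768, at 701 and 145, and chr12:15368804-15369889, at 624 and 123. Scores of different libraries are not on 1 scale, so these pairs show presence and not a change.

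Other A1-2 libraries, which the choice of regions did not use either, had a peak at 43 MTVL-only regions (0.229%, 0.166 to 0.308), against 1.01% of all MTVL PR regions and 1.63% of the other MTVL PR regions. The difference was -1.40 points (-1.57 to -1.22), and the odds ratio pooled over score deciles was 0.137 (0.0954 to 0.198). With lists of equal length the share was 0.0965%. By the rule, each of the other MTVL PR regions holds an A1-2 PR or GR Dex peak and no MTVL-only region does. A lower share at further A1-2 lists is thus partly built into the contrast, which is a description. Merged regions of the other class were also wider, with a median of 771 against 612 bp. The further A1-2 libraries share the cell line with the libraries that chose the regions. Their lists were short too, with 630 peaks used for untreated PR, 394 for untreated GR and 1185 for GR after R5020. At 18753 MTVL-only regions (99.8%) no A1-2 list, input aside, had a peak. The rule itself fixed this for PR after R5020 and GR Dex, and the remaining lists were short. The share is therefore no measure of absent binding in A1-2 cells.

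PR of untreated A1-2 cells was called at 19 of the 43, where a peak was thus listed without hormone but not after R5020. That is 0.101% (0.0609 to 0.158), beside 0.417% of all MTVL PR regions. The MTVL PR scores of these sites were low. The highest was at chr14:21078170-21078808, with an MTVL score of 318 and an untreated A1-2 PR score of 402. On chromosome 6, 5 of the 19 lay between 26 and 29 Mb, a span singled out after the values were seen, with MTVL scores from 105 to 141. That span held 37 untreated A1-2 PR peaks and 21 MTVL-only regions. Untreated GR of A1-2 cells was found at 3 regions (0.0160%, beside 0.121% of all), among them the widest, on chromosome 16 (MTVL PR score 390, GR score 117), and 1 that also had untreated A1-2 PR.

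GR of A1-2 cells after R5020 was called at 22 MTVL-only regions (0.117%, 0.0734 to 0.177, beside 0.587% of all MTVL PR regions). At these sites a GR peak was called under the progestin while no PR peak was called in the same line. The GR scores ran from 132 to 3100 with a median of 590, and 6 of the 22 were 1000 or more. The MTVL PR scores there had a median of 141. The strongest MTVL peak of them was chr1:27018603-27019991, with a PR score of 547 in MTVL cells, a GR R5020 score of 3100 in A1-2 cells and the nearest A1-2 PR peak at 8.38 kb. At chr19:55727732-55729032 the MTVL PR score was 449 and the GR R5020 score 1159, and at chr12:125398411-125400244 they were 299 and 350.

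The share of MTVL PR regions that were MTVL-only differed between chromosomes by more than counting error. It was highest on chromosome 21, with 350 of 589 regions (59.4%, 55.3 to 63.4), and lowest on chromosome 20, with 243 of 1024 (23.7%, 21.2 to 26.5). Chromosomes 4 (53.3%), 13 (53.1%) and 12 (51.7%) followed chromosome 21, and their intervals overlapped each other. Chromosomes 16 (29.3%), 19 (29.5%) and 14 (31.1%) followed chromosome 20, again with overlapping intervals. The whole share of 43.8% lay below the interval on 10 of 23 chromosomes and above it on 9. The intervals were not adjusted for the 23 chromosomes.

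The order was much the same at equal peak strength. Standardised to the score deciles of all MTVL PR regions, the shares moved by at most 2.63 points, to 59.8% on chromosome 21 and 23.9% on chromosome 20. Among regions that scored 1000 or more, where 560 of 8823 were MTVL-only (6.35%, 5.85 to 6.88), chromosome 21 again had the highest share, with 17 of 122 (13.9%, 8.33 to 21.4), and chromosome 20 the lowest, with 2 of 216 (0.926%, 0.112 to 3.30). Chromosome 13 had 28 of 248 (11.3%), and chromosomes 14 and 16 had 5 of 292 and 5 of 286. Over the 23 chromosomes the rank correlation of both shares was 0.87, given as a description since strong regions are part of all regions. The number of copies of each chromosome in these lines was not analysed here.

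**Figure D3:**
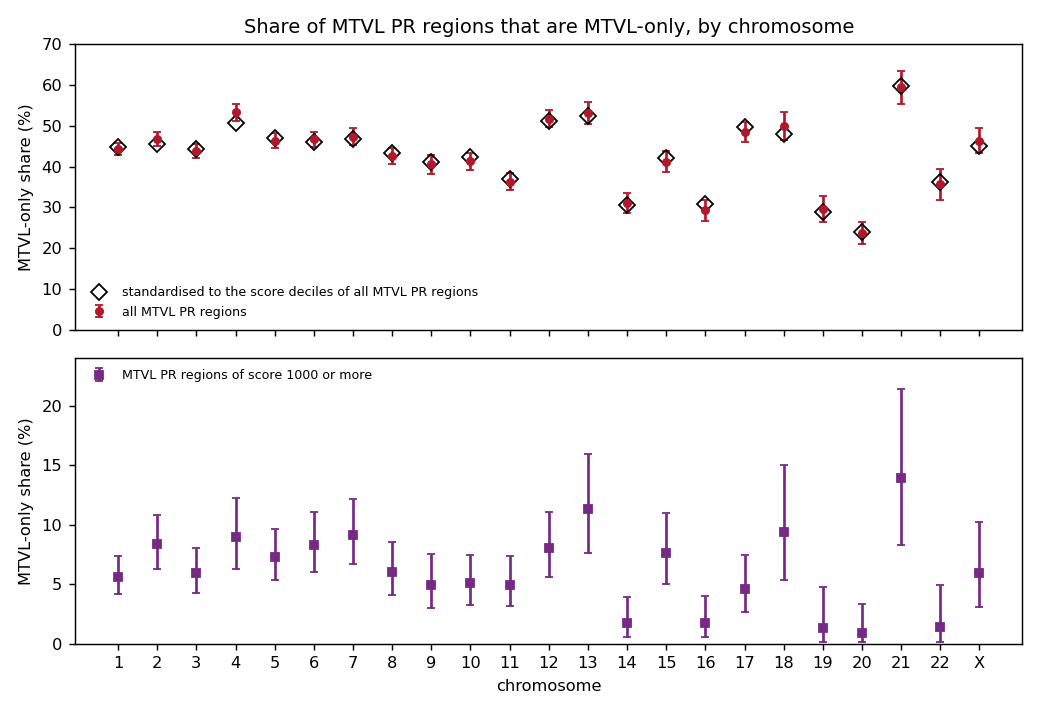
MTVL-only share (%) of MTVL PR regions by chromosome, for all regions (upper panel, filled points with exact 95% intervals, open diamonds standardised to score deciles) and for regions of score 1000 or more (lower panel, squares with exact 95% intervals). Chromosome 21 is highest in both panels (59.4% and 13.9%) and chromosome 20 lowest (23.7% and 0.926%).

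Within chromosomes the share varied as well. In 556 windows of 5 Mb with at least 20 MTVL PR regions the median share was 45.9%, with 26.7% and 62.9% as the 10th and 90th percentiles. At least 70% of the regions were MTVL-only in 19 windows, on 10 chromosomes, and at most 20% in 24 windows, on 10 chromosomes. The highest shares were in chromosome 13 from 65 to 70 Mb, with 18 of 21 (85.7%, 63.7 to 97.0), chromosome 21 from 20 to 25 Mb, with 39 of 46 (84.8%, 71.1 to 93.7), and chromosome 4 from 160 to 165 Mb, with 23 of 29 (79.3%, 60.3 to 92.0). The window next to that of chromosome 21, from 15 to 20 Mb, had 50 of 64 (78.1%). The window of chromosome 13 held 3 A1-2 PR peaks and 2 GR Dex peaks. The lowest were in chromosome 16 from 30 to 35 Mb, with 1 of 30 (3.33%), chromosome 16 up to 5 Mb, with 11 of 109 (10.1%, 5.15 to 17.3) and chromosome 11 from 65 to 70 Mb, with 16 of 132 (12.1%, 7.09 to 18.9). The first of these was dense in A1-2 peaks, with 278 for PR and 265 for GR Dex beside its 30 MTVL PR regions, and it held 13 input peaks.

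Chromosome 12 held both kinds of window, as did chromosomes 11 and X. The windows of chromosome 12 given here were singled out after the values were seen. From 95 to 100 Mb 71 of 100 MTVL PR regions were MTVL-only, and from 75 to 80 Mb 63 of 94 (67.0%, 56.6 to 76.4), short of the limit of 70%. From 50 to 55 Mb only 22 of 127 were (17.3%), and up to 5 Mb 10 of 63 (15.9%). On chromosome 20 no window passed 38.3%. A1-2 input peaks were more frequent in windows with a low share. They lay in 19 of the 24 windows at or under 20% (122 peaks beside 1980 MTVL PR regions). At or over 70% they lay in 5 of the 19 windows (10 peaks beside 795 MTVL PR regions), and among all windows in 50.4%. Over the 556 windows the rank correlation of share and input peaks was -0.20, a description over windows that share the libraries. The part of input signal in the shares was not tested.

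**Figure D4:**
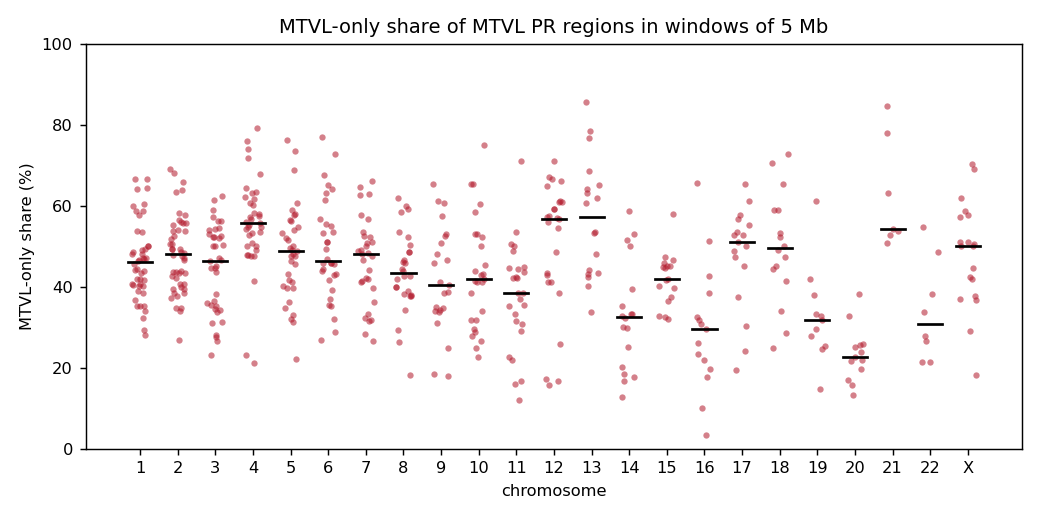
MTVL-only share (%) of MTVL PR regions in windows of 5 Mb with at least 20 such regions (vertical axis), by chromosome (horizontal axis); each point is 1 window and the line is the chromosome's median. Points run from 3.33% on chromosome 16 to 85.7% on chromosome 13, and no window of chromosome 20 passes 38.3%.

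Some MTVL-only regions formed long exclusive stretches, which are runs of at least 10 consecutive merged regions that were all MTVL-only. Such a stretch thus held no A1-2 PR R5020 or GR Dex peak of the lists used, while peaks dropped at input peaks were not counted. Of the 18796 regions, 5685 (30.2%) stood alone between regions with an A1-2 peak, 12465 were in runs of 2 to 9 and 646 (3.44%) were in 56 such stretches. MTVL-only regions were 36.5% of all merged regions, and the number of stretches that this share alone would give was not computed. The stretches lay on 19 chromosomes, with 8 on chromosome 12, 6 on chromosome 1 and 5 on chromosome 13. Their spans went from 0.0836 to 5.01 Mb, with 0.0836 Mb for 11 regions on chromosome 1 as the shortest. An A1-2 input peak lay in 9 of them (21 peaks), and a peak of another A1-2 list in 6. The longest, chr10:38144422-43155884, held 10 of these input peaks. With peaks at input peaks kept there were 55 stretches. With lists of equal length 1 stretch was left.

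The stretch with most regions was on chromosome 13, from 65046830 to 68342958, where 17 MTVL-only regions lay over 3.30 Mb. Their scores ran from 105 to 1543 with a median of 146, and the 2 strong ones were chr13:67120740-67121819 (1043) and chr13:68089482-68090623 (1543). No peak of any A1-2 list, input included, was called in it, and the nearest regions with an A1-2 peak were 616779 and 234191 bp away on its sides. On chromosome 3, 16 regions lay from 102249294 to 103436138, with scores from 122 to 941. On chromosome 5, 15 regions lay from 165303350 to 166387423 (110 to 574), and on chromosome 7, 15 lay from 92646060 to 93551442 (110 to 335). These 3 stretches were made of weak and middling sites, with no score of 1000.

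Chromosome 7 also held the strongest of the 6 stretches with most regions, from 32650712 to 33802676, with 14 regions and scores from 112 to 2358. Its strong sites were chr7:33276486-33277439 (1770), chr7:33620315-33621406 (1269) and chr7:33632546-33633665 (2358), and 2 input peaks lay within it. On chromosome 1, 14 regions lay from 193187853 to 195807565, with scores from 105 to 353. That stretch held 1 input peak and 1 GR R5020 peak of A1-2 cells. In all 56 stretches 33 of the 646 regions scored 1000 or more, beside 560 of all 18796 MTVL-only regions (2.98%).

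**Figure D5:**
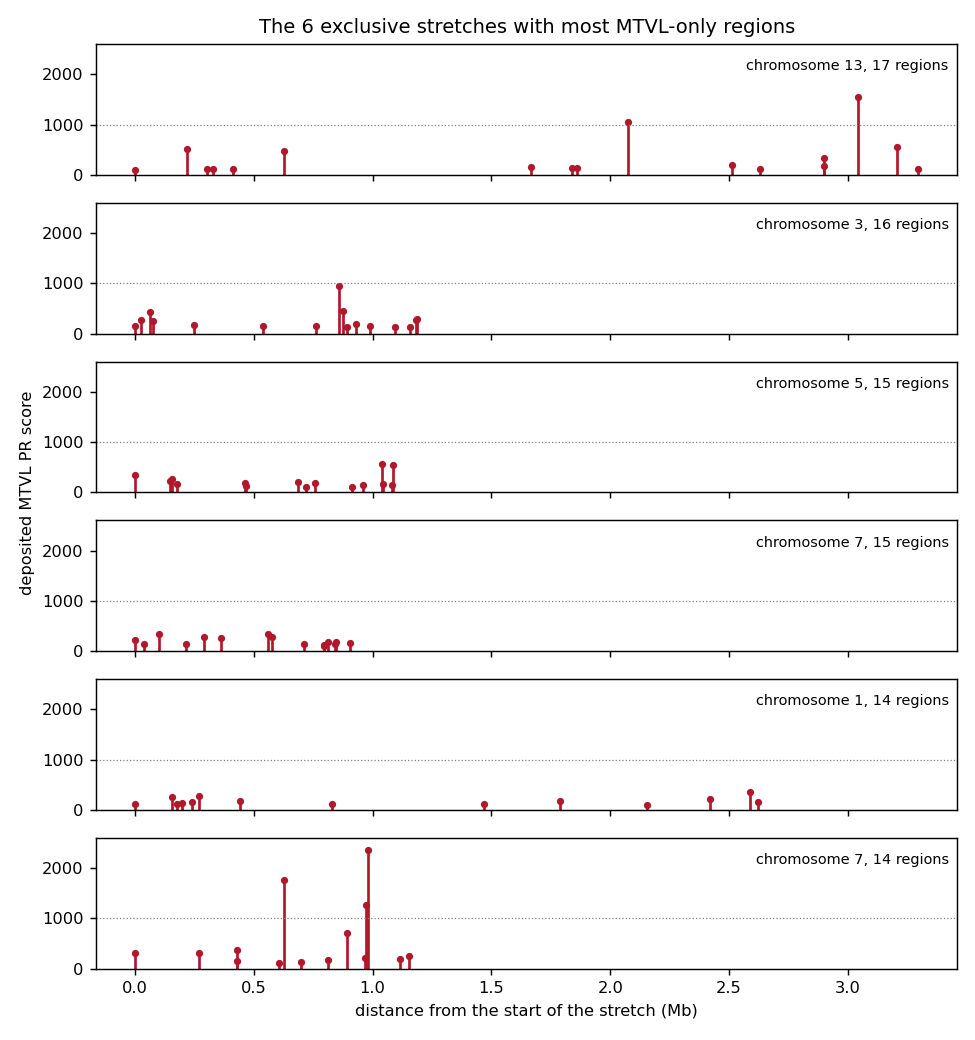
Deposited MTVL PR score (vertical axis) of each MTVL-only region against its distance from the start of the stretch (horizontal axis, Mb), for the 6 exclusive stretches with most regions; the dotted line marks a score of 1000. Regions over the line are seen in the stretch with 17 regions (up to 1543) and in the last one, on chromosome 7 with 14 regions (up to 2358).

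The rule that set MTVL-only regions apart turned on few base pairs at its limit. The MTVL-only region nearest to an A1-2 peak, chr11:93860684-93861343 with a score of 157, was 7 bp from an A1-2 PR peak, and chr4:129153776-129154420, with a score of 512, was 8 bp from one. On the other side, the MTVL peak at chr11:35785220-35785883, with a score of 126, overlapped an A1-2 peak by 1 bp and was left out. An A1-2 peak lay within 100 bp of 106 MTVL-only regions, and 28 of the 24274 MTVL peaks that overlapped an A1-2 peak did so by at most 100 bp.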

How the data were processed

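Each of the 8 deposited files lists the peaks of 1 library with position and score. Listed in the submitters' processing notes are hg19, MACS 1.4.2, Bowtie 1.1.1 and bedtools, with no roles given. Their settings, control library and filters are not given here. The deposited score was read as a MACS significance score, minus 10 times log10 p, because it starts at 100 and file names carry 1e-10. Scores were compared within a list only. MTVL-only regions and lists were chosen with earlier results of these data known.

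Of 43398 deposited MTVL PR peaks after R5020, 43070 were used (0 off the chromosomes kept, 328 at A1-2 input peaks), of 28563 A1-2 PR peaks 28262 and of 18538 GR Dex peaks 18415. No MTVL input list was used here. A region's score is the highest of its MTVL peaks. Shares have exact (Clopper-Pearson) 95% intervals, differences Newcombe intervals and common odds ratios Mantel-Haenszel estimates. Peaks are not replicates, and no p-value was computed. Merging and the odds ratio were tested on simulated data. Regions named were, by rule, the 12 highest (scores tied at 3100 taken in order of position, so that 6 of equal score are not named) and 5 widest, the 5 highest at an untreated MTVL peak, the 5 highest at another A1-2 list, the 6 stretches with most regions, the 3 windows at each end, and regions at the limit of the rule. Alternatives were an overlap of 50%, a reach of 500 bp, a score minimum of 200, lists of equal length, input peaks kept and other score classes. Gene annotation and motifs were planned only for hg19 references and were not run, and no sequence is printed. Python 3.11.15, numpy 2.4.6, scipy 1.17.1 and matplotlib 3.10.9 were used.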

Additional observations from a re-analysis of the deposited data

How the results depend on the processing

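The 10 results were recomputed in 53 ways. In 34 the value stayed inside its own 95% interval (counts, inside 1.5 times), and in 19 it moved further. A reversal was defined for the odds ratio only, which stayed below 1 in each of its alternatives. Keeping peaks at input peaks, or asking for an overlap of 50% of the shorter peak, moved none of the 10. Counting A1-2 peaks within 500 bp as overlapping lowered the share with an A1-2 peak within 10 kb to 29.9%, as its construction implies. The minimum score of 200 was applied to every list, so the untreated and other A1-2 lists were cut as well. It gave 43.6% of merged regions as MTVL-only, 25.2% within 10 kb and a median score of 362. At an untreated MTVL peak lay 0.0283% (odds ratio 0.217) and at another A1-2 list 0.155%. The share was 66.9% on chromosome 21 and 30.7% on chromosome 20. Lists of equal length, which drop weak MTVL peaks, gave 5184 MTVL-only regions (17.0%), 0.289% at an untreated MTVL peak, 0.0965% at another A1-2 list, 29.3% within 10 kb, a median score of 617, 1 exclusive stretch, and 44.0% on chromosome 21 and 13.8% on chromosome 20. With those lists the odds ratio was 0.648 (0.357 to 1.17). Without strata it was 0.137, and over MTVL peaks in place of regions, an alternative added after seeing the data, 0.541. Chromosome 21 stayed above chromosome 20 in all 5 alternatives run for it. The number of regions depends on the calling threshold and on depth, which is unknown. No paired analysis was possible because each condition had 1 library.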
